A study of Mus musculus with 6 samples.

Results

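Cyclins, cyclin-dependent kinases (CDKs) and CDK inhibitors form the engine that carries a cell through its division cycle. The 10 members described here were found in the table by gene symbol and were chosen with earlier results of these data known: the cyclin genes Ccnd2, Ccnd3, Ccne1, Ccna2 and Ccnb1, the kinase genes Cdk4 and Cdk6, and the inhibitor genes Cdkn1a, Cdkn1b and Cdkn2c. All 10 were among the 24589 genes of the table and all 10 passed the filter on low values, which left 10866 genes for testing. Both groups held wild-type (WT) primary CD8+ T cells from mice, the cytotoxic lymphocytes, activated with antibodies to CD3 and CD28. Treatment lasted 24 h. The TVA group received 20 µM trans-vaccenic acid, a trans fatty acid of ruminant milk and meat, and the DMSO group received the solvent. Each group held 3 libraries. The labels give neither the age of the mice nor whether the 3 libraries of a group came from separate animals or cultures, so every p-value measures only the spread between these libraries, which may be technical. Per the study's methods, CD8+ T cells were purified with magnetic beads from spleens and lymph nodes of C57BL/6 mice. All libraries came from activated cells, so no resting level was measured.

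A CDK is inactive until it binds a cyclin, and the order in which cyclins appear gives the cycle its direction. D-type cyclins (Ccnd2, Ccnd3) pair with CDK4 and CDK6 when a resting cell is stimulated, and the pair phosphorylates the retinoblastoma protein, which frees E2F factors to transcribe genes of DNA replication. Cyclin E (Ccne1) then drives entry into S phase, cyclin A (Ccna2) acts in S and G2 phase, and cyclin B (Ccnb1) with CDK1 starts mitosis. The inhibitors set a brake: p21 (Cdkn1a) and p27 (Cdkn1b) bind cyclin-CDK complexes, and p18 (Cdkn2c), of the INK4 family, binds CDK4 and CDK6 alone. In T cells, p27 is abundant at rest and falls after stimulation, while the D cyclins, CDK4 and CDK6 are induced as the cells leave quiescence. The comparison addressed whether these transcripts differ between stimulated cells with and without TVA. Much of the regulation of these genes acts on proteins, by phosphorylation and timed destruction, which an RNA measurement does not see.

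Values are TPM, the share of each gene among all transcripts on a common scale, values that are corrected for transcript length and therefore allow levels of different genes to be compared within a library. Differences are on the log2(TPM + 1) scale, TVA minus DMSO, from limma fitted to all 10866 genes, and a gene was called when its Benjamini-Hochberg adjusted p was under 0.05. By that rule 8.51% of all genes tested were called, 5.28% higher and 3.23% lower with TVA (574 and 351 genes). This balance depended on scaling, with 270 higher and 492 lower after median-of-ratios scaling and 357 and 418 after quantile normalization. TPM keeps no trace of sequencing depth, which is unknown here. Pearson correlations between libraries, across genes that are not independent replicates, ranged from 0.989 to 0.999. DMSO replicate 2 stood apart from its group, correlating at 0.996 with each TVA library but at 0.993 and 0.995 with DMSO replicates 1 and 3. Ccnb1, Ccna2, Cdkn1a, Cdkn1b and Cdkn2c, the ratio of cyclins to inhibitors and the list counts are also given without DMSO replicate 2. Leaving that library out raised the calls over all genes from 925 to 2242 (1223 higher and 1019 lower), whereas 102 to 125 genes were called without any one TVA library. Genes with GC-rich transcripts tended towards lower values with TVA (Spearman correlation of the log2 change with GC content across genes, -0.40). Of 7 CD8 T cell markers, the 6 in the table summed to 1670 to 1800 TPM with DMSO and 1912 to 1943 TPM with TVA, and Cd4 was at 3.80 to 4.46 TPM with DMSO and 3.33 to 3.64 TPM with TVA, without overlap. Within the CD8 sum, Cd3d, Cd3e, Cd3g and Cd8a were higher in every TVA library than in any DMSO library. Cd8b1 (306.4 to 329.1 TPM with DMSO, 309.1 to 314.5 TPM with TVA) and Cd2 overlapped between the groups. The red cell list (2 of 2 in the table) summed to 11.3 to 24.5 TPM with DMSO and 6.96 to 20.3 TPM with TVA. The myeloid list (5 of 5, Adgre1 under 1 TPM) summed to 34.2 to 36.7 and 45.7 to 48.3 TPM, mostly Lyz2, and the NK list (3 of 3, Ncr1 and Klrb1c under 1 TPM) to 21.3 to 23.9 and 32.5 to 33.1 TPM, nearly all Eomes, which activated CD8 T cells also express. The part of these shifts in the results below was not tested.

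Of the 10 members, 1 was called, the mitotic cyclin gene Ccnb1, which was higher with TVA. None was called lower, and at an unadjusted p under 0.05 there were 4: Ccnd2, Ccna2 and Ccnb1 on the higher side and Cdk6 on the lower. Over all genes, 3451 of the 10866 tested had an unadjusted limma p under 0.05. One call in 10 stands beside the 8.51% of all genes, so the share of members called was near the background. The TVA libraries lay wholly above the DMSO libraries for 3 members (Ccnd2, Ccna2, Ccnb1), where 27.3% of all genes tested did so, and wholly below for 2 (Cdk6, Cdkn1a), where 11.2% did so. The median log2 change of the 10 was 0.06, against 0.04 over all genes tested. All fitted changes lay between -0.11 and 0.19. In bulk RNA, a change in how many cells are in a given phase and a change in transcript per cell cannot be told apart.

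**Figure D1:**
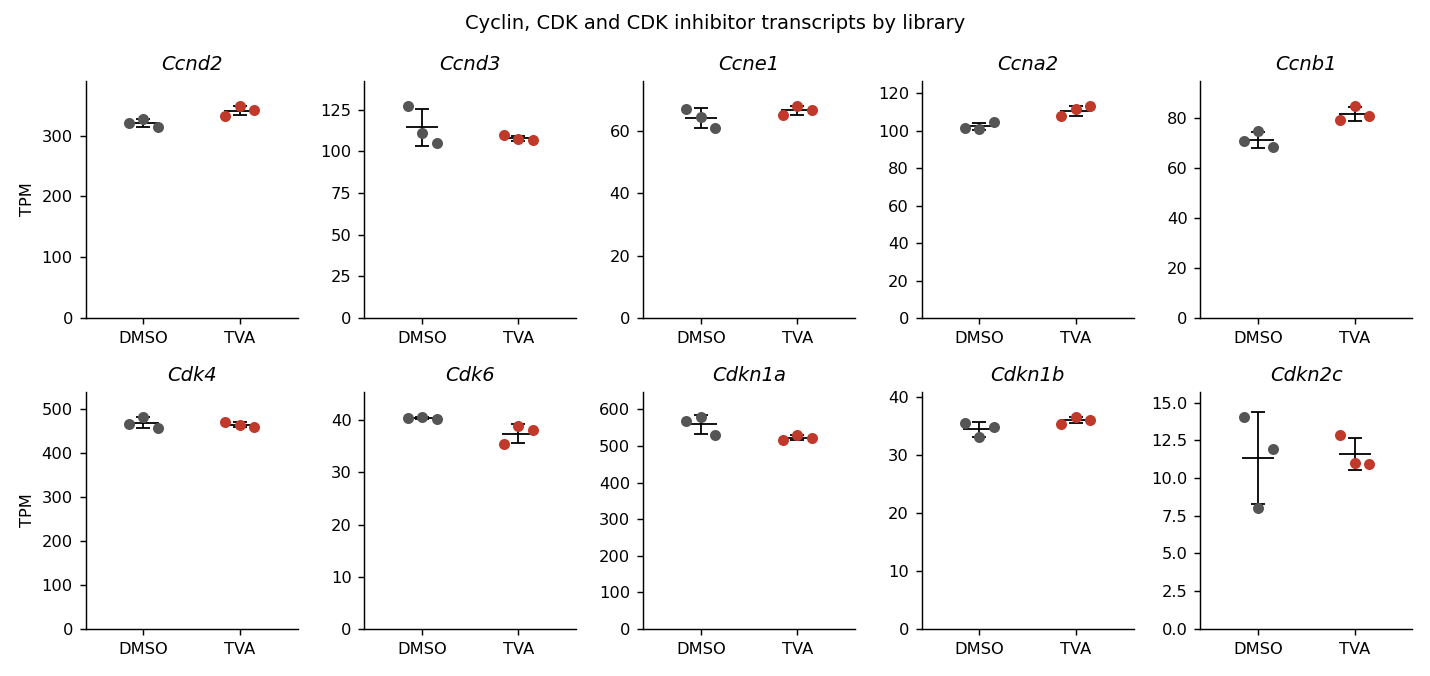
Transcript level (TPM, linear axis from 0, a separate scale for each gene) of the 10 genes in each of the 3 DMSO libraries (grey) and 3 TVA libraries (red). Points are libraries, the long bar is the mean and the whiskers are the SD. The groups do not overlap for Ccnd2, Ccna2, Ccnb1, Cdk6 and Cdkn1a, and the DMSO libraries of Cdkn2c spread from 8.03 to 14.0 TPM.

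Ccnb1, on chromosome 13 (mm10, chr13:100778650-100786570, minus strand), encodes cyclin B1, the partner of CDK1 at entry into mitosis. DMSO replicates 1, 2 and 3 had 70.6, 74.7 and 68.4 TPM, and TVA replicates 1, 2 and 3 had 79.1, 84.5 and 80.7 TPM. Every TVA library was above every DMSO library, and the lowest TVA value was closer to the highest DMSO value than the group means were to each other. The means were 71.2 ± 3.22 (SD, n = 3) and 81.4 ± 2.77 TPM (SD, n = 3). The fitted log2 change was 0.19 (SE 0.047, 95% interval 0.08 to 0.30), a fold of 1.14 (1.06 to 1.23), with a limma adjusted p of 0.047. The call lay close to the threshold and was lost in 11 of 14 alternative settings, over which the adjusted p ranged from 0.015 to 0.19. It held without DMSO replicate 2 (log2 change 0.23, adjusted p 0.015), whereas the adjusted p was 0.059 without DMSO replicate 1, 0.11 without DMSO replicate 3, and 0.11, 0.19 and 0.16 without TVA replicates 1, 2 and 3. With a correction for GC content, which is 44.2% in Ccnb1 transcripts and 50.4% in the median gene, the log2 change was 0.12 and the adjusted p 0.092. The fitted change was above 0 in all 14 alternatives, from 0.12 to 0.23.

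**Figure D2:**
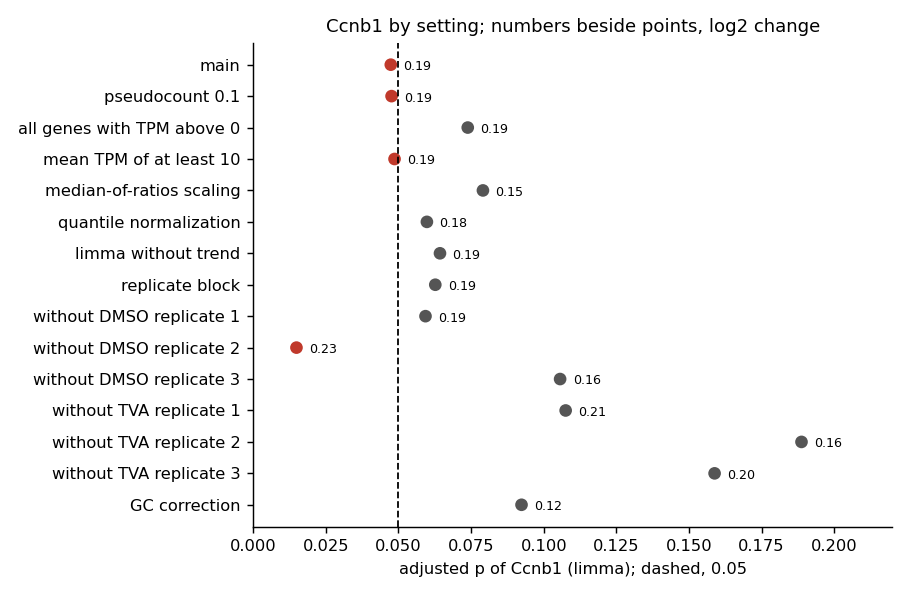
Adjusted p of Ccnb1 (horizontal axis, limma) under the setting used in the text (top row, "main") and each of 14 alternatives, with the log2 change printed beside each point and a dashed line at 0.05. Red points are under 0.05. Most points lie above the line, including 11 of the 14 alternatives. The adjusted p runs from 0.015 without DMSO replicate 2 to 0.19 without TVA replicate 2, while the log2 change stays between 0.12 and 0.23.

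The bases before the Ccnb1 start are shown because this was the member called, and those before the Cdk4 start because the levels of that abundant kinase transcript overlapped between the groups, as described further on. Promoter windows came from RefSeq (GRCm38.p6) and ran from 250 bases before to 50 bases after each start. Of the 10 members, 8 matched, with 11 windows, and none matched for Ccnd2 and Ccna2. Only the bases outside the GENCODE vM21 gene are printed, which removed 84 bases next to the start of Ccnb1 and 1 base at Cdk4. Capitals mark a CCAAT box in Ccnb1 and the E-box CACGTG, the sequence bound by MYC and related factors, in Cdk4.
Ccnb1, chr13:100786571-100786736, minus strand: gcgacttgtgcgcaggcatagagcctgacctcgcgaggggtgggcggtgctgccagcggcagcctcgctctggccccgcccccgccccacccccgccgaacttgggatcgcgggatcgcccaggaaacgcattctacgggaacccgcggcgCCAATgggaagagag
Cdk4, chr10:127063285-127063533, plus strand: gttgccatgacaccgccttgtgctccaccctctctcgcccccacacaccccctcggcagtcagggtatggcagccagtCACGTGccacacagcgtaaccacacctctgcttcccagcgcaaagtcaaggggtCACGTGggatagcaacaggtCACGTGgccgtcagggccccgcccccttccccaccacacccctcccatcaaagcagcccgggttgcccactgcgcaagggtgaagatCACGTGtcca
The Ccnb1 window held 2 CCAAT boxes on the gene's strand, at bases -99 to -95 and -67 to -63 counted from the RefSeq start, of which the second lies in the bases not printed. CCAAT, searched on both strands, occurred in 4 of the 11 member windows (Ccnb1, Ccnd3, Cdkn1b and Cdkn2c) and in 37.4% of all 32851 windows. Cdk4 held 4 E-boxes, beginning at bases -172, -118, -98 and -11. The E-box, which reads the same on both strands, was searched for after the Cdk4 window had been seen. At least 1 was present in 7.15% of all windows, and at least 4 in 8 windows (0.0244%). The cutoff of 4 was taken from the Cdk4 window itself, so this share is only a description. Cdk6 and Cdkn2c also held an E-box. The E2F letters searched (TTTCCCGC, TTTCGCGC, TTTGCCGC and TTTGGCGC, 2.26% of all windows), the cell cycle homology region TTTGAA (17.9%) and the cAMP response element TGACGTCA (1.79%) were in none of the 11 windows, which says only that these letters were not there. The shorter core TGACG, which is contained in the full element, was in 5 of the 11 windows (of Ccnd3, Cdk4, Cdk6 and Cdkn1b) and in 20.8% of all windows. Among the windows of genes tested, which all members were, the shares were 4.20% for the E2F letters, 12.05% for TTTGAA, 3.33% for TGACGTCA, 32.6% for TGACG, 38.1% for CCAAT and 10.4% for the E-box.

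Ccna2 (chr3:36564865-36572150, minus strand) encodes cyclin A2, the partner of CDK2 in S phase. Its level was 101.6, 101.3 and 104.7 TPM in the DMSO libraries and 107.9, 111.6 and 113.1 TPM in the TVA libraries, so the groups did not overlap. Means were 102.5 ± 1.90 and 110.8 ± 2.67 TPM (SD, n = 3 each), the log2 change was 0.11 (SE 0.037, 95% interval 0.03 to 0.20) and the limma adjusted p was 0.091, which did not pass the threshold. Leaving out DMSO replicate 2 gave a log2 change of 0.10 and an adjusted p of 0.11. Over the 14 alternatives the change ran from 0.05, with the GC correction (limma adjusted p 0.26), to 0.13. The annotated exons of Ccna2 share 510 bases with those of Exosc9 on the opposite strand, and the sources used here do not say whether strand was used in counting. Exosc9 had 82.4 ± 4.19 TPM with DMSO and 90.4 ± 3.93 TPM with TVA (SD, n = 3; limma adjusted p 0.13).

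Ccne1 (chr7:38097984-38107534, minus strand), the cyclin of the G1 to S transition, differed less. It had 67.1, 64.4 and 60.9 TPM in the DMSO and 65.2, 67.9 and 66.9 TPM in the TVA libraries. The groups overlapped, since DMSO replicate 1 exceeded 2 of the TVA libraries. Its log2 change was 0.06 (SE 0.045, 95% interval -0.05 to 0.16; limma adjusted p 0.42). That change was 0.09 without DMSO replicate 1 and 0.02 without DMSO replicate 3. The related Ccne2 was measured at 36.5 ± 2.92 TPM with DMSO and 40.6 ± 0.563 TPM with TVA (SD, n = 3; log2 change 0.15, limma adjusted p 0.13), and its groups did not overlap.

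Among the D-type cyclins, which link growth factor and antigen receptor signals to the cycle, Ccnd2 (chr6:127125162-127152193, minus strand) was the most abundant transcript. It had 321.1, 327.3 and 313.9 TPM in the DMSO and 332.7, 347.8 and 342.0 TPM in the TVA libraries. The groups were apart by a small gap, from DMSO replicate 2 to TVA replicate 1. The log2 change was 0.09 (SE 0.036, 95% interval 0.0028 to 0.17), with a limma adjusted p of 0.15. Ccnd3 (chr17:47505051-47599691, plus strand) had 126.9, 111.0 and 105.1 TPM in the DMSO and 109.6, 107.1 and 106.5 TPM in the TVA libraries. The TVA libraries lay inside the range of the DMSO libraries, which DMSO replicate 1 stretched upwards. The log2 change of Ccnd3 was -0.08 (SE 0.066, 95% interval -0.24 to 0.07; limma adjusted p 0.42), and it was -0.0043 without DMSO replicate 1. Ccnd1, the third D-type cyclin gene and the prominent one in many other tissues, was between 0.38 and 0.56 TPM in every library and was not tested. Exons of Ccnd3 share 361 bases with Bysl on the opposite strand (log2 change of Bysl 0.02, limma adjusted p 0.85).

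Neither kinase partner of the D cyclins passed the test. Cdk4 (chr10:127063534-127067920, plus strand), whose E-boxes are shown above, had 467.1, 481.8 and 457.2 TPM in the DMSO and 470.2, 463.9 and 460.2 TPM in the TVA libraries. The TVA libraries lay inside the DMSO range. The log2 change was -0.01, and its 95% interval of -0.10 to 0.07 (SE 0.036, limma adjusted p 0.84) bounds a difference in either direction. Tspan31 (82.2 ± 3.20 TPM with DMSO, 94.4 ± 1.40 TPM with TVA), whose exons share 641 bases with those of Cdk4 on the opposite strand, was called higher (SD, n = 3; log2 change 0.20, limma adjusted p 0.031). Any reads that the counting could have placed with either gene would affect both values. Cdk6 (chr5:3341485-3531008, plus strand) had 40.3, 40.6 and 40.2 TPM in the DMSO and 35.4, 38.8 and 38.1 TPM in the TVA libraries. All TVA libraries were lower, and the DMSO libraries were unusually close, with a coefficient of variation of 0.436%. The log2 change of Cdk6 was -0.11 (SE 0.044, 95% interval -0.21 to -0.0044; limma adjusted p 0.15), so it did not pass. Over the 14 alternatives the change ran from -0.14 to -0.05, the latter with the GC correction, and was -0.07 without TVA replicate 1.

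No inhibitor passed the test, and the signs of their fitted changes differed. Cdkn1a (chr17:29090976-29100727, plus strand), which encodes p21 and is a classic target of the tumour suppressor p53, was the most abundant of the 10 transcripts. It had 568.2, 578.7 and 529.9 TPM in the DMSO and 516.8, 529.4 and 521.5 TPM in the TVA libraries. The groups were apart by a narrow margin, between 529.4 TPM in TVA replicate 2 and 529.9 TPM in DMSO replicate 3. Means were 558.9 ± 25.7 and 522.6 ± 6.37 TPM (SD, n = 3 each), and the log2 change was -0.10 (SE 0.043, 95% interval -0.20 to 0.0036; limma adjusted p 0.17). Without DMSO replicate 2 it was -0.07 (adjusted p 0.25). Cdkn1b (chr6:134920401-134925513, plus strand), the gene of p27, had 35.5, 33.0 and 34.7 TPM in the DMSO and 35.4, 36.5 and 36.0 TPM in the TVA libraries. Its groups overlapped, and its log2 change was 0.06 (SE 0.042, 95% interval -0.04 to 0.16; limma adjusted p 0.34). Over the 14 alternatives the Cdkn1b change ran from -0.014 to 0.08, and it was 0.03 without DMSO replicate 2. Cdkn2c (chr4:109660876-109667189, minus strand), the gene of p18, had 14.0, 8.03 and 11.9 TPM in the DMSO and 12.8, 11.01 and 10.9 TPM in the TVA libraries. DMSO replicate 2 was the lowest library of all. The interval of the Cdkn2c change was the widest of the 10, from -0.34 to 0.46 around 0.06 (limma adjusted p 0.83), and the sign turned to -0.15 without DMSO replicate 2.

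**Figure D3:**
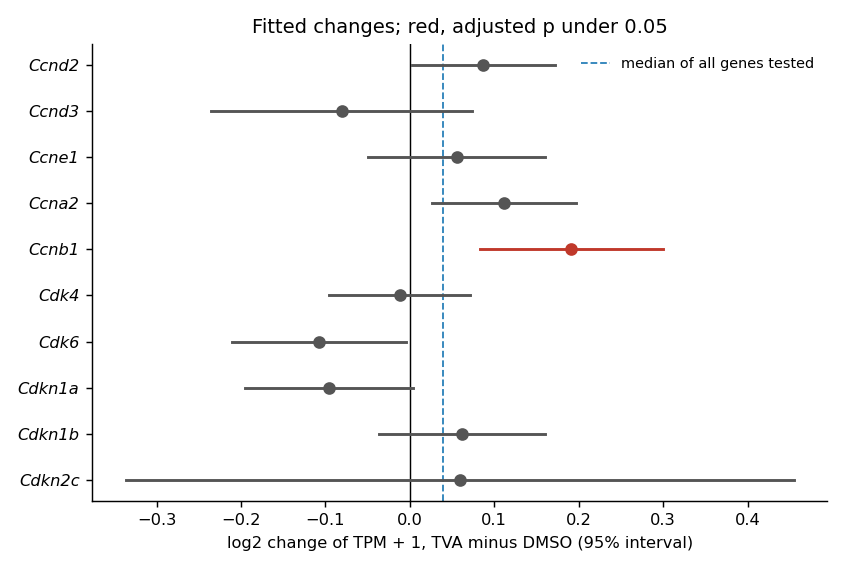
Fitted log2 change (TVA minus DMSO, log2(TPM + 1) scale) with its 95% interval from limma for the 10 genes. The solid line is 0 and the dashed line the median of all genes tested, 0.04. Ccnb1 (red, adjusted p 0.047) is the one gene past the threshold, and the interval of Cdkn2c is the widest.

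Levels per length differed among the members far more than between the groups. In the DMSO libraries the order, from high to low, was Cdkn1a, Cdk4, Ccnd2, Ccnd3, Ccna2, Ccnb1, Ccne1, Cdk6, Cdkn1b and Cdkn2c, with means from 558.9 to 11.3 TPM. No neighbours in that order had overlapping libraries. Ranked among all 24589 genes of the table, Cdkn1a was at 221, Cdk4 at 260, Ccnd2 at 401 and Cdkn2c at 7236. In the TVA libraries Ccna2 and Ccnd3 changed places, at 110.8 and 107.7 TPM, with overlapping libraries, and Cdk6 and Cdkn1b, at 37.4 and 35.9 TPM, overlapped as well. The order was otherwise as with DMSO. Among the inhibitors, p21 transcript thus exceeded p27 transcript by a ratio of 15.3 to 17.5 in the DMSO libraries, and the CDK4 transcript exceeded that of CDK6, each taken within a library. The scatter differed between the groups: coefficients of variation ran from 0.436% to 26.9% with DMSO and from 1.09% to 9.35% with TVA, the highest in both being Cdkn2c.

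Ratios of members within a library do not depend on a factor applied to the whole library. Without a correction for GC content, 5 such ratios were compared. Ccnd2 to Ccnd3 was 2.53, 2.95 and 2.99 in the DMSO libraries and 3.04, 3.25 and 3.21 in the TVA libraries. Cdk6 to Cdk4 was 0.0863, 0.0842 and 0.0880 with DMSO and 0.0754, 0.0836 and 0.0827 with TVA. Cdkn1a to Cdkn1b was 16.0, 17.5 and 15.3 with DMSO and 14.6, 14.5 and 14.5 with TVA. In every TVA library Ccnd2 was higher relative to Ccnd3, and Cdk6 and Cdkn1a were lower relative to Cdk4 and Cdkn1b, than in any DMSO library. The sum of Ccna2 and Ccnb1 relative to Ccne1, later against earlier cyclins, was 2.56, 2.73 and 2.84 with DMSO and 2.87, 2.89 and 2.90 with TVA. The log2 differences of these 4 ratios were 0.17, -0.10, -0.16 and 0.09, in the order given. Each had an exact two-sided permutation p of 0.1, also after adjustment over the 5 ratios, and 0.1 is the smallest p that 3 against 3 libraries can give, so none could pass 0.05. For comparison, 36.1% of all pairs among the 10856 genes above 0 TPM in every library had ratios that did not overlap between the groups. That share is for ratios of 2 single genes. No share was computed for ratios of sums, such as later to earlier cyclins or cyclins to inhibitors.

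The summed TPM of the 5 cyclins was 673.0 ± 17.8 with DMSO and 707.4 ± 12.3 with TVA (SD, n = 3), and that of the 3 inhibitors was 604.7 ± 24.4 and 570.1 ± 6.12. Cdkn1a makes up most of the second sum and Ccnd2 the largest part of the first. Their ratio was 1.11, 1.10 and 1.13 in the DMSO libraries and 1.23, 1.25 and 1.25 in the TVA libraries, which did not overlap, a log2 difference of 0.16 given as a description. Single libraries carried part of these log2 differences. Without DMSO replicate 1, the log2 difference was 0.09 for Ccnd2 to Ccnd3 and 0.050 for the later to earlier cyclins. Without TVA replicate 1 it was -0.051 for Cdk6 to Cdk4, and without DMSO replicate 2 it was -0.10 for Cdkn1a to Cdkn1b and 0.14 for cyclins to inhibitors. The ratios were not recomputed with the GC correction. With it, the fitted log2 changes of Ccnd2 and Ccnd3 were 0.09 and 0.013, in place of 0.09 and -0.08. Those of Cdkn1a and Cdkn1b were -0.08 and -0.014, in place of -0.10 and 0.06. Those of Cdk6 and Cdk4 were -0.05 and 0.0093, in place of -0.11 and -0.01.

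**Figure D4:**
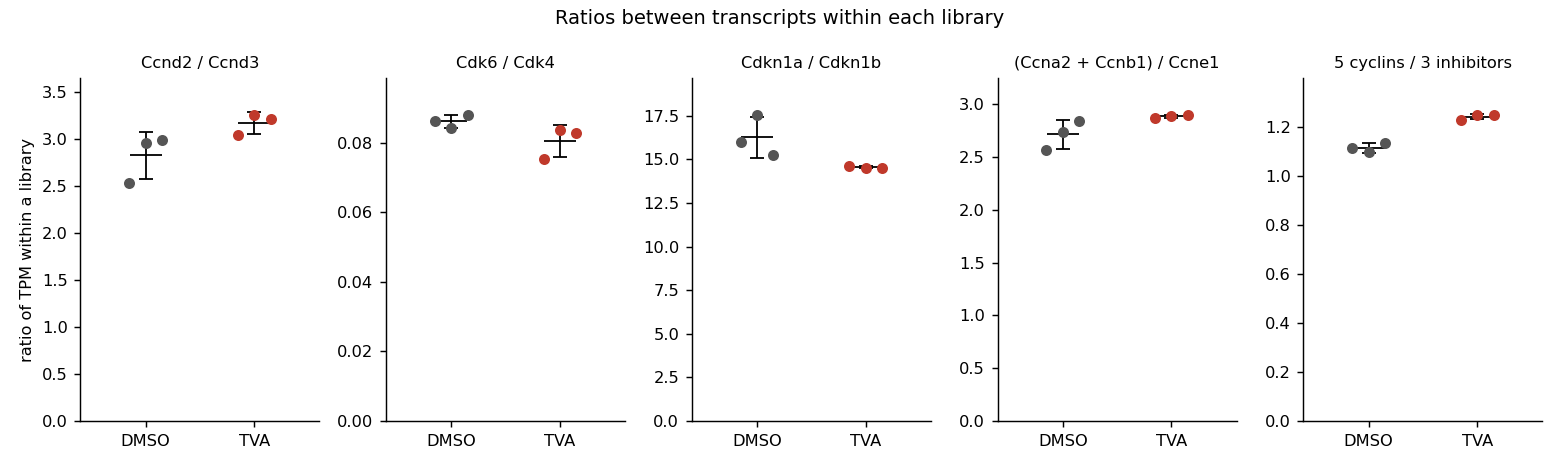
Ratio of TPM values within each library (linear axes from 0), in the 3 DMSO libraries (grey) and 3 TVA libraries (red), with the mean and SD. The groups do not overlap in any of the 5 panels, and the separation is widest relative to the spread for cyclins to inhibitors, with DMSO at 1.10 to 1.13 and TVA at 1.23 to 1.25. Of all pairs of single genes, 36.1% had ratios without overlap, and no such share was computed for ratios of sums.

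The genes around the members were taken from 11 lists with 68 genes, of which 62 were tested. Of these, 5 were called higher and 1 lower, against 5.28% and 3.23% of all genes, and the median log2 change was 0.02 against 0.04 over all genes. After median-of-ratios scaling 3 were called higher and 3 lower, and after quantile normalization 3 and 2. The TVA libraries lay above the DMSO libraries for 21 of the 62 and below for 7, where 27.3% and 11.2% of all genes tested did so.

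The catalytic partner of cyclin B, Cdk1, which also pairs with cyclin A, was called higher. It had 65.1, 67.6 and 66.9 TPM in the DMSO and 72.6, 73.8 and 75.8 TPM in the TVA libraries (log2 change 0.15, SE 0.037, limma adjusted p 0.047). Cdc25c, the phosphatase that removes the inhibitory phosphates from CDK1 before mitosis, rose by 0.26 on the log2 scale (SE 0.053), from 6.26 ± 0.245 to 7.67 ± 0.204 TPM (SD, n = 3; limma adjusted p 0.032). Cdc25c was the 1 gene called among the 5 of its list, whose median log2 change was -0.02. The related phosphatase genes Cdc25a and Cdc25b had log2 changes of 0.00 and -0.02 (limma adjusted p 0.997 and 0.87). Wee1 and Pkmyt1, the kinases that place those phosphates, were not called, with log2 changes of -0.04 (adjusted p 0.66) and -0.28 (adjusted p 0.10) by limma. Cdk2, the partner of cyclins E and A, had a log2 change of 0.04 (limma adjusted p 0.52). Neither Ccnb2, the second B-type cyclin (log2 change -0.07, adjusted p 0.52), nor Ccnf (0.22, adjusted p 0.059) passed, and Ccna1 and Ccnb3 were listed at 0 in every library.

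In the RB and E2F family, 1 of 13 genes was called. Rbl1, which encodes p107, a relative of the retinoblastoma protein, had 27.4, 25.7 and 28.3 TPM in the DMSO and 32.1, 33.1 and 33.6 TPM in the TVA libraries (log2 change 0.27, SE 0.047, limma adjusted p 0.019). The other 12 had adjusted p-values above the threshold, and the list ran from -0.11 to 0.27. With the GC correction E2f1 and E2f2 were also called higher (log2 change 0.21 each, limma adjusted p 0.016 and 0.023). Rbl2 was then called lower (-0.16, adjusted p 0.023). Without DMSO replicate 1, E2f1 and E2f2 passed as well (limma adjusted p 0.041 and 0.047). None of the 3 genes of the CDK-activating kinase and none of the 8 for CKS proteins and for the ubiquitin ligases and adaptors of cyclin destruction were called. Of the other inhibitors, Cdkn2d (p19) was tested (log2 change 0.11, limma adjusted p 0.12), while Cdkn1c, Cdkn2a and Cdkn2b were below 1 TPM in every library. None of the 13 cyclins and CDKs of transcription, such as Ccnt1 and Cdk9, was called, and their median was 0.05. Of the 3 proliferation markers 2 were called: Top2a, the topoisomerase of dividing cells, rose by 0.24 on the log2 scale, from 187.6 ± 6.07 to 221.3 ± 3.69 TPM (limma adjusted p 0.016), and Pcna, the sliding clamp of DNA polymerase, by 0.17, from 965.2 ± 34.4 to 1086.0 ± 15.04 TPM (SD, n = 3; limma adjusted p 0.044). Over 14 alternatives the change of Pcna ran from 0.09 to 0.19, and it was 0.09 both with the GC correction and with quantile normalization. Mki67, the gene of Ki-67, had a log2 change of 0.12 (limma adjusted p 0.12).

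Because Cdkn1a is a p53 target, 11 other targets of p53 were examined. One was called, Sesn2, which encodes the stress protein sestrin 2, with 79.3, 67.4 and 66.5 TPM in the DMSO libraries and 59.2, 57.6 and 58.7 TPM in the TVA libraries (log2 change -0.27, SE 0.067, limma adjusted p 0.049). The median of the 11 was -0.06, against 0.04 over all genes, and 4 had TVA libraries wholly below the DMSO libraries, as 11.2% of all genes did. Bbc3, the gene of the pro-apoptotic protein PUMA, had 76.8, 46.1 and 64.0 TPM in the DMSO and 41.2, 39.7 and 38.6 TPM in the TVA libraries (log2 change -0.60, limma adjusted p 0.055). Phlda3, an inhibitor of AKT, had 171.4, 102.6 and 142.1 TPM in the DMSO and 91.0, 88.7 and 90.8 TPM in the TVA libraries (log2 change -0.58, limma adjusted p 0.059). In both, DMSO replicate 2 was the DMSO library closest to the TVA group. With the GC correction the log2 change of Bbc3 turned to 0.28 (adjusted p 0.27), while that of Phlda3 was -0.50 (adjusted p 0.047). Mdm2, the ubiquitin ligase that restrains p53, and Aen, a nuclease, had log2 changes of -0.01 and 0.00 (limma adjusted p 0.85 and 0.98). The list thus held genes with differences near 0 as well as the largest differences of all 62 list genes.

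Calls in the lists depended on single libraries: there were 8 higher and 7 lower without DMSO replicate 2, 2 and 0 without DMSO replicate 3, and 0 and 0 when any TVA library was left out. Calls over all genes moved as well, to 1223 higher and 1019 lower without DMSO replicate 2, to 143 and 151 without DMSO replicate 3, and to at most 51 and 74 without a TVA library. Without DMSO replicate 2, Bbc3 and Phlda3 passed (limma adjusted p 6.7e-04 and 6.2e-04) and Cdkn1a did not (0.25), but the sign of Bbc3 turned with the GC correction, as given above. Top2a and Rbl1 kept their calls most often, in 11 and 10 of 14 alternatives, followed by Sesn2 in 7 of 14, Cdc25c in 7 of 13, Pcna in 4 of 14 and Cdk1 in 3 of 14.

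**Figure D5:**
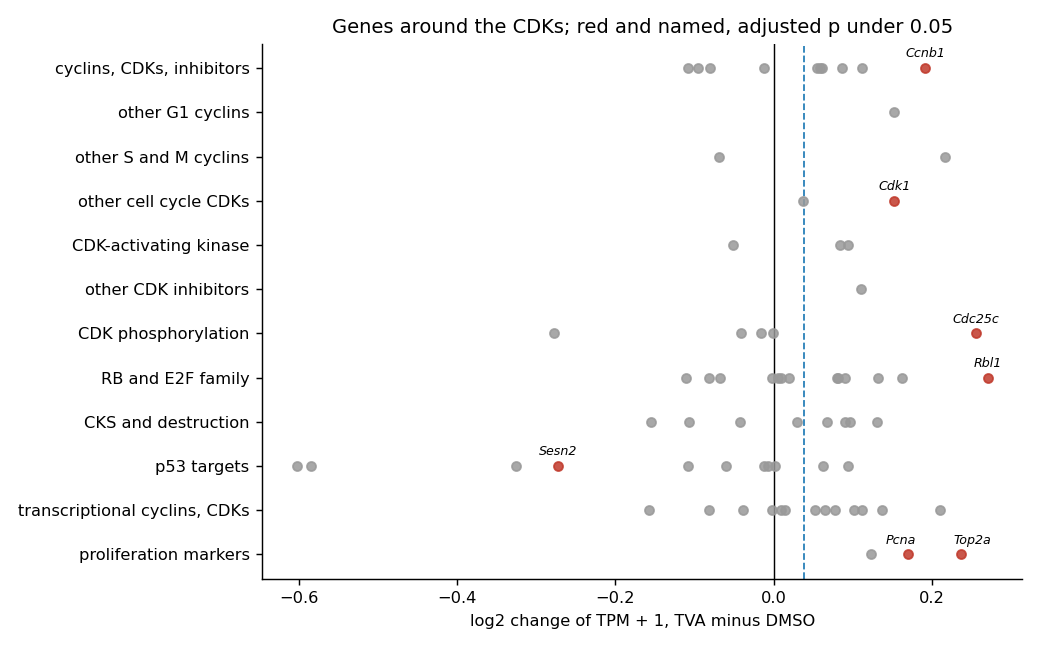
Log2 change (TVA minus DMSO, log2(TPM + 1) scale) of the 10 members (top row) and of the 62 tested genes of 11 lists around them, 1 point per gene. The solid line is 0, the dashed line the median of all genes tested (0.04), and red named points are past an adjusted p of 0.05. The 7 red points are Ccnb1, Cdk1, Cdc25c, Rbl1, Pcna and Top2a to the right and Sesn2 to the left, while Bbc3 and Phlda3 (-0.60 and -0.58) are the grey points farthest left, Bbc3 being at 0.28 with the GC correction.

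The genes whose profile over the 6 libraries was most like that of Ccnb1, among the 7561 with a mean of at least 10 TPM, were Prr14l and Nrbp1, each with a Pearson r of 0.996. This describes 6 libraries that share a group structure, and 286 of those genes had an r above 0.95. Processed pseudogenes of Ccnb1 and Ccnd3 are annotated (Ccnb1-ps and Ccnd3-ps), and how the counting treated reads shared with them is not given in the sources used here.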

How the data were processed

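RNA-seq libraries of activated mouse CD8+ T cells (3 TVA, 3 DMSO) were grouped by sample title. Per the labels, libraries were made with the SMARTER mRNA-Seq kit. The authors deposited 1 table of TPM per gene symbol, and the submitters' processing notes name STAR, RSEM and mm10; versions and annotation are not given in the sources used here. Columns were matched to libraries by the name in each description. Genes that reached a TPM of 1 in 3 or more libraries were compared on log2(TPM + 1) with limma 3.58.1 in R 4.3.3 with a variance trend, with two-sided tests, p-values adjusted by Benjamini-Hochberg across every gene in the fit, and no replicate block. The log2 scale with this pseudocount understates changes of low genes. Depth is unknown, so no counting intervals are given. Ratios were compared by exact permutation in Python 3.11.15 with scipy 1.17.1, and figures drawn with matplotlib 3.10.9. The fit was tested on simulated data.

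All members are named. From each list the 3 called genes with the largest change were named; list genes that were not called were named after their values were seen, to show the role of each list. The members and lists were chosen with earlier results of these data known, so their directions are not independent support. Coordinates and exon overlaps are from GENCODE vM21 (GRCm38, the same assembly as mm10), which may differ from the authors' annotation. The GC content of a gene, the median of its transcripts, was known for 99.5% of the genes in the fit. Alternatives were a pseudocount of 0.1, all genes above 0 TPM, a mean TPM of at least 10, median-of-ratios and quantile scaling, limma without trend, the replicate number as a block, leaving out each library, and a GC correction (loess, span 0.5). One further marker list was not reported here.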

Additional observations from a re-analysis of the deposited data

How the results depend on the processing

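Over the 10 members and 14 alternatives, 123 of 140 fitted changes kept their direction and their side of the threshold, 11 (all Ccnb1) lost the call and 6 reversed. The count of members called higher, 1, was 0 with all genes above 0 TPM, median-of-ratios scaling, quantile normalization, limma without trend, the replicate block and the GC correction, and 0 to 1 when a library was left out. Ccnb1 kept its call with a pseudocount of 0.1, a mean of at least 10 TPM and without DMSO replicate 2. No member was called lower under any alternative. The reversed changes were not called: Ccnd3 (0.013), Cdk4 (0.0093) and Cdkn1b (-0.014) with the GC correction, Cdk4 without DMSO replicate 2 (0.0080; -0.030 to 0.0080 over the omissions), and Cdkn2c without DMSO replicate 2 (-0.15) and without TVA replicate 1 (-0.011), the latter within a range of -0.15 to 0.22 over the omissions. The list genes called higher, 5, were 2 with all genes above 0 TPM, 3 with each of median-of-ratios scaling, quantile normalization and limma without trend, 1 with the replicate block, and 0 to 8 when a library was left out. Those called lower, 1, were 0 with all genes above 0 TPM, limma without trend and the replicate block, 3 with median-of-ratios scaling, 2 with quantile normalization, 5 with the GC correction, and 0 to 7 when a library was left out. With all genes above 0 TPM, 16749 genes were tested; otherwise the cause was not tested. Median-of-ratios scaling moved the median of all genes from 0.04 to 0.0043, and calls over all genes from 574 higher and 351 lower to 270 and 492.

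The ratios kept their direction when each library was left out, a design in which the smallest exact p is 0.2. Same-numbered libraries did not deviate together (correlations of 0.16, 0.035 and -0.077), so the numbers were not taken as pairs; with the replicate block, 218 genes were called in place of 925, and Ccnb1 had an adjusted p of 0.063. With 3 libraries a group and unknown depth, differences of the size seen in Cdkn2c, whose interval ran from -0.34 to 0.46, could not be resolved.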
